A study of Mus musculus with 11 samples.

Results

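Glutathione S-transferases are enzymes that couple the tripeptide glutathione to reactive molecules, and 10 of their genes were read in mouse liver: Gsta2, Gsta3, Gsta4, Gstm1, Gstm2, Gstm3, Gstp1, Gstt1, Gstt2 and Gstk1. A gene was measured on a probe set whose annotation names that gene alone, and where it had several such probe sets, on the one with the highest mean over the 11 arrays. By this rule 9 of the 10 genes were measured, out of 19938 genes in all. Gsta2 had no probe set of its own and is described separately on 4 probe sets that it shares with other genes.

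The livers came from male mice at 14 months of age, and each array was hybridised with labelled total RNA. The wild-type group (3 arrays) was of strain C57BL/6 with both genes intact. The Mdr2-KO group (4 arrays) carried a knockout of Mdr2, and the Mdr2-KO/IL6-KO group (4 arrays) carried that knockout together with a knockout of interleukin 6. The tissue of both knockout groups was taken free of tumour, and the strain of the knockout mice is not given in their sample labels. Mdr2 is the protein of Abcb4, the pump that moves phosphatidylcholine into bile. Mice without it are used as a model of chronic bile duct injury with later fibrosis and liver tumours. Setting the Mdr2-KO group against wild type shows how tissue taken free of tumour differs when the pump is missing. For the other knockout group, the contrast with wild type covers the loss of both genes together. No group lacks interleukin 6 alone, so the share of each loss cannot be separated in that contrast. What the loss of interleukin 6 adds is read between the knockout groups. The first 2 comparisons share the wild-type arrays, so they are not independent of each other.

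Glutathione S-transferases of the cytosol are grouped by sequence into classes such as alpha, mu, pi and theta, and the kappa enzyme lies in mitochondria and peroxisomes. Hepatocytes hold large amounts of them, and their products are pumped out of the cell for excretion in bile and urine. Many of their genes are induced through NRF2, a transcription factor that KEAP1 holds back until electrophiles or oxidants modify it, and through nuclear receptors that sense foreign chemicals and bile acids.

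All levels are log2 values, so that a difference of 1 is a doubling. A gene was called changed where limma's moderated test gave an adjusted p under 0.05, with Benjamini-Hochberg adjustment over the 19938 genes. Arrays were alike, with Pearson r from 0.976 to 0.990 between pairs. On the first principal component, with 28.2% of the variance, wild-type arrays lay at -23.3 to -20.1 and knockout arrays at -5.84 to 15.7. On the second, with 19.5%, Mdr2-KO array 2 (-25.8) and array 3 (21.0) lay farthest apart, so results on that group are also given without these 2 arrays. Wild-type sample titles carry the prefix W and knockout titles the prefix BIL, and no label explains them. Wherever wild type is compared, a difference between these title series and genotype cannot be told apart. Separate mice are not stated for the arrays, so the p-values measure the spread between these arrays, which may be partly technical. As a check of the labels, Abcb4 read 9.74 to 9.95 on wild-type arrays, 7.54 to 7.98 on Mdr2-KO arrays and 7.83 to 8.32 on Mdr2-KO/IL6-KO arrays. Il6 read between 1.62 and 2.09 on the 11 arrays, near the bottom of the scale, which checks nothing about that label. Albumin, the main secreted protein of hepatocytes, read 13.25 to 13.38 on the 11 arrays, as liver tissue should.

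The stretches of 250 bases before the start of transcription are shown for Gstp1, Gstm3 and Gstm1, which were called changed in this study, for Gstp2, the near copy of Gstp1, and for Gsta3, which was not called. They are from RefSeq, build GRCm38.p6, written 5′ to 3′ on the strand of the gene. RefSeq windows of 300 bases (250 before and 50 after the start) were found for 8 of the 10 genes, and not for Gsta4 or Gstt2. Gstm1 had another window from a different start, whose stretch before the start (chr3:108017819-108018068) was searched but is not shown. Capitals mark matches to 2 spellings of the core of the antioxidant response element, the site that NRF2 binds. These are TGACNNNGC and TGAGNNNGC, searched on both strands. The second spelling was added after the sequences had been read.
Gstp1 (chr19:4037913-4038162, minus strand): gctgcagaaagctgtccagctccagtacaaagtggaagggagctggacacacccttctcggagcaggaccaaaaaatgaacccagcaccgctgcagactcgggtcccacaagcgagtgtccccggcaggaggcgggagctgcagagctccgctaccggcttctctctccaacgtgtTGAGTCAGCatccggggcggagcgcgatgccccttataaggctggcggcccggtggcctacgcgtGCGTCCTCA
Gstp2 (chr19:4042222-4042471, minus strand): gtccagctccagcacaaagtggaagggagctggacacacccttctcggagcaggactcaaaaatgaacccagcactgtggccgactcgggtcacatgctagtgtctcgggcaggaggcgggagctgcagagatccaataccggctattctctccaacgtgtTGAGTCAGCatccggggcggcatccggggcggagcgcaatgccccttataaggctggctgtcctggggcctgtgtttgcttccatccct
Gstm3 (chr3:107969175-107969424, minus strand): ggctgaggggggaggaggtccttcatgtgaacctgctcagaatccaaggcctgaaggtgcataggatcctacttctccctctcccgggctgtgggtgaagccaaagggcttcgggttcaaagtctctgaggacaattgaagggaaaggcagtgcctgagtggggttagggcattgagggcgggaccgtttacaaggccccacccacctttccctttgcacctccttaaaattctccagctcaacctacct
Gstm1 (chr3:108017974-108018223, minus strand): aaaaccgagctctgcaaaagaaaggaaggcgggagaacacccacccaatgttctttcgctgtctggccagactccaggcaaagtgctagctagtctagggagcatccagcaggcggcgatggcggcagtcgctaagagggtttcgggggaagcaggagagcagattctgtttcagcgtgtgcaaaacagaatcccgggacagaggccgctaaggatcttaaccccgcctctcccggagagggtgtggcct
Gsta3 (chr1:21240335-21240584, plus strand): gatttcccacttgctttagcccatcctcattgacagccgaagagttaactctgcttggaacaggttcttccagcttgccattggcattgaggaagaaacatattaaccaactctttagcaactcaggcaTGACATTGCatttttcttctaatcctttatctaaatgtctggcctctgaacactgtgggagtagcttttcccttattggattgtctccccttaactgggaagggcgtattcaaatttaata

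The windows of Gstp1 and Gstp2 both held TGAGTCAGC on the gene's own strand, at positions -74 to -66 and -89 to -81 from the start, where -1 is the last base before it. Gstp1 had a further match on the other strand at -9 to -1, seen above as GCGTCCTCA. Gsta3 held TGACATTGC at -121 to -113, and Gstt1, whose sequence is not shown, held TGAGAGAGC at -89 to -81. Neither spelling was found in the windows of Gsta2, Gstm1, Gstm2, Gstm3 and Gstk1. Over 32851 RefSeq windows of the same length, 12.4% held TGACNNNGC, 17.6% held TGAGNNNGC and 27.8% held either. A match describes these letters and is not evidence of binding. Bases outside the windows were not searched, so a window without a match does not show that the gene lacks such a site.

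In Mdr2-KO against wild type, 2 of the 9 measured glutathione S-transferases rose, Gsta4 and Gstp1, and none fell. Over all genes tested, 0.948% were called higher and 0.316% lower in this comparison. The arrays of the groups did not overlap for 2 of the 9 genes, the same Gsta4 and Gstp1, and for 9.13% of all genes. The median log2 change was 0.16 over the 9 genes and -0.01 over all genes. In Mdr2-KO/IL6-KO against wild type, 4 of the 9 rose, Gsta4, Gstm3, Gstp1 and Gstm1, and none fell. Over all genes, 2.91% were called higher and 1.28% lower in that comparison. The arrays did not overlap for 6 of the 9, namely these 4 together with Gsta3, which read lower, and Gstt2, which read higher, and for 16.3% of all genes. The median log2 change was 0.45 over the 9 genes and -0.00 over all genes.

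**Figure D1:**
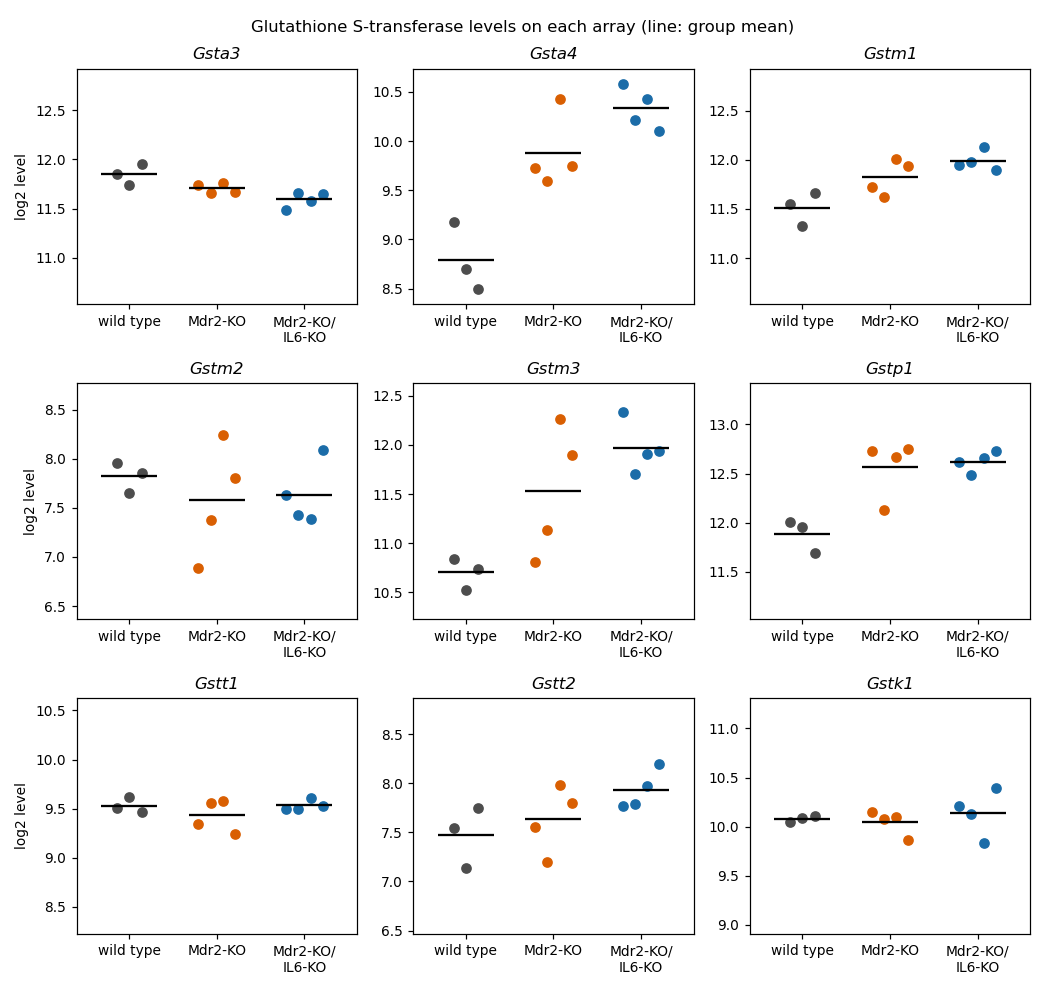
Log2 level of each of the 9 measured glutathione S-transferases (vertical axis) on each array, by genotype group; points are arrays, horizontal lines are group means, and all panels span the same number of log2 units. Gsta4 and Gstp1 lie higher on all 8 knockout arrays than on the 3 wild-type arrays, Gstm3 and Gstm1 do so on the 4 Mdr2-KO/IL6-KO arrays, and Gsta3 and Gstt1 move little.

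Gsta4 is the alpha-class enzyme that prefers 4-hydroxynonenal and related aldehydes, the products of lipid peroxidation. On probe set 10587315 it read 9.18, 8.70 and 8.50 on wild-type arrays, 9.73, 9.59, 10.43 and 9.75 on Mdr2-KO arrays and 10.58, 10.22, 10.43 and 10.11 on Mdr2-KO/IL6-KO arrays. Every knockout array lay above every wild-type array. Mdr2-KO array 3 stood with the Mdr2-KO/IL6-KO arrays, while the other Mdr2-KO arrays lay below them. The level was 8.79 ± 0.348 (SD, n = 3), 9.87 ± 0.376 (SD, n = 4) and 10.33 ± 0.211 (SD, n = 4) in the same order of groups. Gsta4 rose 2.12-fold in Mdr2-KO (95% interval 1.57 to 2.85, log2 change 1.08 ± 0.20 SE, limma adjusted p = 0.0160). It rose 2.91-fold in Mdr2-KO/IL6-KO (interval 2.16 to 3.92, log2 change 1.54 ± 0.20 SE, limma adjusted p = 0.000738). The second of these calls held in all 24 alternative settings (limma adjusted p from 0.000110 to 0.0213). The call in Mdr2-KO held in 18 of 24 (adjusted p from 0.00563 to 0.147) and was lost, among others, without wild-type array 2 (0.0778) or wild-type array 3 (0.0795).

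Gsta3, another alpha-class enzyme, which is known for its part in clearing the mould toxin aflatoxin in mice, went the other way in level. Probe set 10345065 read 11.85, 11.74 and 11.96 on wild-type arrays, 11.74, 11.66, 11.76 and 11.67 on Mdr2-KO arrays and 11.49, 11.66, 11.58 and 11.65 on Mdr2-KO/IL6-KO arrays. The Mdr2-KO/IL6-KO arrays all lay below the arrays of both other groups, by small steps, and the Mdr2-KO and wild-type arrays overlapped. The closest pair was Mdr2-KO/IL6-KO array 2 at 11.6578 and Mdr2-KO array 2 at 11.6595. The log2 change was -0.14 ± 0.08 SE in Mdr2-KO (limma adjusted p = 0.665) and -0.25 ± 0.08 SE in Mdr2-KO/IL6-KO (limma adjusted p = 0.130), so neither passed the threshold. With array weights the second was called lower (adjusted p = 0.0477, against a range up to 0.416 over the 24 alternatives).

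Gsta2, an alpha-class enzyme whose induction by NRF2 activators is well described, could not be measured by itself. The 4 probe sets that name it (10587323, 10587331, 10587339 and 10595148) also name Gsta1 and the predicted genes Gm10639 and Gm3776, so their signal cannot be assigned to 1 gene. They were tested in a fit of all 35557 probe sets, in which 0.239% were called higher in Mdr2-KO and 0.965% higher in Mdr2-KO/IL6-KO. Probe set 10587323 read 8.61, 6.94 and 7.33 on wild-type arrays, 9.53, 9.33, 10.98 and 9.66 on Mdr2-KO arrays and 10.87, 10.61, 10.40 and 10.39 on Mdr2-KO/IL6-KO arrays. All 8 knockout arrays lay above all wild-type arrays, wild-type array 1 was the highest of its group, and Mdr2-KO array 3 the highest of all. Over the 4 shared probe sets the log2 change was 2.68 to 2.94 in Mdr2-KO/IL6-KO (limma adjusted p from 0.00747 to 0.00989 over all probe sets), a rise of 6.42-fold to 7.67-fold. In Mdr2-KO the log2 change was 2.03 to 2.25, and it did not pass (limma adjusted p from 0.0620 to 0.0739). Between the knockout groups it was 0.65 to 0.69, and it did not pass either (limma adjusted p = 0.9994 for each). Gsta4 and Gstp1 likewise did not pass in Mdr2-KO in this fit (limma adjusted p = 0.0825 and 0.129). Their calls in Mdr2-KO come from the fit with 1 probe set per gene. Passing in that fit cannot be set against not passing in the fit of all probe sets.

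Gstp1, the pi-class enzyme and one of the most abundant in the liver of male mice, read 12.01, 11.95 and 11.69 on wild-type arrays with probe set 10464583. The Mdr2-KO arrays read 12.73, 12.13, 12.67 and 12.75, and those of Mdr2-KO/IL6-KO 12.61, 12.48, 12.65 and 12.73. Mdr2-KO array 2 lay between the wild-type arrays and the other 7 knockout arrays, which kept between 12.48 and 12.75. The level was 11.88 ± 0.172 (SD, n = 3), 12.57 ± 0.296 (SD, n = 4) and 12.62 ± 0.102 (SD, n = 4). Gstp1 rose 1.61-fold in Mdr2-KO (interval 1.30 to 1.99, log2 change 0.69 ± 0.14 SE, limma adjusted p = 0.0320). It rose 1.67-fold in Mdr2-KO/IL6-KO (interval 1.35 to 2.06, log2 change 0.74 ± 0.14 SE, limma adjusted p = 0.00999). The call in Mdr2-KO held in 11 of 24 alternatives (adjusted p from 0.00139 to 0.164). It was lost when wild-type array 1, 2 or 3, Mdr2-KO array 1, 3 or 4, or Mdr2-KO/IL6-KO array 1 or 3 was left out, with adjusted p of 0.0707, 0.0885, 0.138, 0.0922, 0.0839, 0.0970, 0.0545 and 0.0504 in that order. The call in Mdr2-KO/IL6-KO held in 22 of 24 (adjusted p from 0.000838 to 0.0611) and was lost without wild-type array 3 (0.0565).

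Gstp2, the near copy of Gstp1, had no probe set of its own. A pair of probe sets name both genes. Probe set 10361152 read 10.56, 10.29 and 10.42 on wild-type arrays, 11.54, 10.72, 11.50 and 11.60 on Mdr2-KO arrays and 11.42, 11.31, 11.43 and 11.41 on Mdr2-KO/IL6-KO arrays. The order of arrays was like that on the probe set of Gstp1 alone, with Mdr2-KO array 2 again the lowest of the knockout arrays. In the fit of all probe sets, 10361152 and 10464586 gave log2 changes of 0.92 and 0.88 in Mdr2-KO (limma adjusted p = 0.0825 and 0.151). In Mdr2-KO/IL6-KO both gave 0.97 (limma adjusted p = 0.0296 and 0.0475). The probe set of Gstp1 alone likewise passed in that fit in Mdr2-KO/IL6-KO and not in Mdr2-KO (limma adjusted p = 0.0434 and 0.129). Signal of Gstp1 and Gstp2 may be mixed on the probe set annotated to Gstp1 alone as well, which was not tested.

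Gstm3 and Gstm1 belong to the mu class, which acts on aromatic electrophiles and epoxides. Gstm3 read 10.84, 10.53 and 10.74 on wild-type arrays, 10.81, 11.14, 12.27 and 11.90 on Mdr2-KO arrays and 12.33, 11.70, 11.91 and 11.94 on Mdr2-KO/IL6-KO arrays on probe set 10362511. Within Mdr2-KO, array 1 lay inside the wild-type range and array 2 just above it, while arrays 3 and 4 lay among the Mdr2-KO/IL6-KO arrays. The level was 10.70 ± 0.162 (SD, n = 3), 11.53 ± 0.673 (SD, n = 4) and 11.97 ± 0.263 (SD, n = 4), and the spread in Mdr2-KO was the widest among the 9 genes. Gstm3 rose 2.41-fold in Mdr2-KO/IL6-KO (interval 1.60 to 3.63, log2 change 1.27 ± 0.28 SE, limma adjusted p = 0.0191). In Mdr2-KO the log2 change of 0.83 ± 0.28 SE did not pass (limma adjusted p = 0.246). The call in Mdr2-KO/IL6-KO held in 17 of 24 alternatives (adjusted p from 0.000889 to 0.116) and was lost without wild-type array 1 (0.0524), 2 (0.0823) or 3 (0.0617) or Mdr2-KO/IL6-KO array 1 (0.0632).

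Gstm3 had another probe set of its own, 10501218, which is not in the main test since its mean is lower. It read 9.57, 8.87 and 8.90 on wild-type arrays, 9.66, 10.26, 11.55 and 11.04 on Mdr2-KO arrays and 11.68, 11.12, 11.18 and 11.12 on Mdr2-KO/IL6-KO arrays. All knockout arrays lay above all wild-type arrays here, and the order within Mdr2-KO was that of the first probe set. The log2 change was 1.51 ± 0.38 SE in Mdr2-KO (limma adjusted p = 0.204 over all probe sets) and 2.16 ± 0.38 SE in Mdr2-KO/IL6-KO (0.0217), larger than on the first probe set. In the fit of all probe sets the first one no longer passed in Mdr2-KO/IL6-KO (limma adjusted p = 0.0775). The size of the Gstm3 change thus depends on the probe set. Signal of other genes may be mixed on either Gstm3 probe set, which was not tested.

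**Figure D2:**
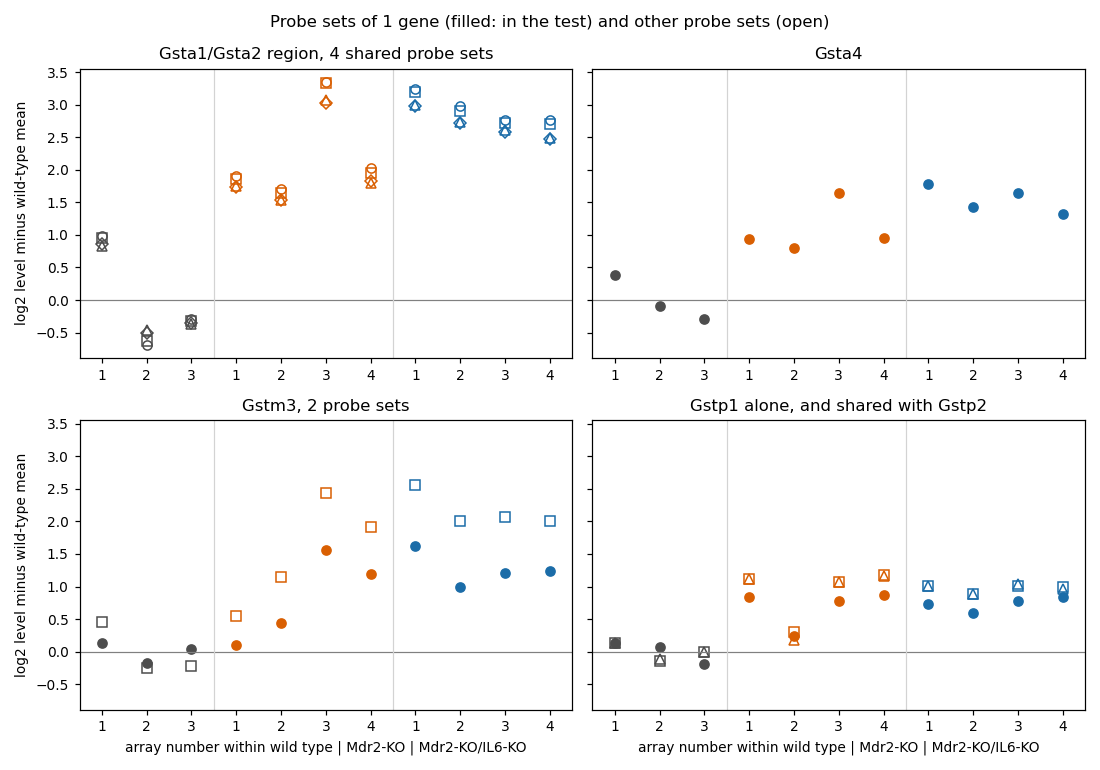
Log2 level minus the wild-type mean of the same probe set (vertical axis) on each of the 11 arrays (horizontal axis), for the probe sets shared by Gsta1, Gsta2 and 2 predicted genes, for Gsta4, for both Gstm3 probe sets and for Gstp1 alone or with Gstp2. Filled points are the probe sets in the main test. The shared Gsta2 probe sets reach the highest values, and Mdr2-KO array 2 is low on all 3 Gstp1 probe sets.

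Gstm1 moved within a narrower range, at 11.55, 11.33 and 11.66 on wild-type arrays, 11.72, 11.62, 12.01 and 11.94 on Mdr2-KO arrays and 11.95, 11.97, 12.13 and 11.89 on Mdr2-KO/IL6-KO arrays on probe set 10501229. The Mdr2-KO/IL6-KO arrays lay above all wild-type arrays, and Mdr2-KO array 2 overlapped with wild type. Gstm1 rose 1.39-fold in Mdr2-KO/IL6-KO (interval 1.17 to 1.65, log2 change 0.47 ± 0.11 SE, limma adjusted p = 0.0333). In Mdr2-KO the log2 change was 0.31 ± 0.11 SE (limma adjusted p = 0.328). The call held in 14 of 24 alternatives (adjusted p from 0.0161 to 0.150), among them not without wild-type array 1 (0.0878) or 2 (0.150), or Mdr2-KO/IL6-KO array 1 (0.0695), 2 (0.0746) or 3 (0.0977).

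Gstm2, of the same class, read 7.96, 7.65 and 7.85 on wild-type arrays, 6.89, 7.37, 8.25 and 7.81 on Mdr2-KO arrays and 7.63, 7.43, 7.39 and 8.09 on Mdr2-KO/IL6-KO arrays. All groups overlapped, and the Mdr2-KO arrays spread on both sides of wild type. The log2 change was -0.24 ± 0.26 SE in Mdr2-KO (limma adjusted p = 0.877) and -0.18 ± 0.26 SE in Mdr2-KO/IL6-KO (0.835), with 95% intervals of -0.79 to 0.31 and -0.73 to 0.37.

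The theta-class genes and the kappa gene were not called in any comparison. Gstt1, which can also break carbon-halogen bonds, read between 9.24 and 9.62 on the 11 arrays, with log2 changes of -0.10 (interval -0.31 to 0.11) and 0.00 (-0.21 to 0.21) in Mdr2-KO and Mdr2-KO/IL6-KO. Gstk1, the mitochondrial and peroxisomal enzyme, read between 9.83 and 10.39, with log2 changes of -0.03 (interval -0.29 to 0.22) and 0.06 (-0.20 to 0.32). These intervals bound any change of Gstt1 or Gstk1 to less than the rise of Gsta4.

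Gstt2 read 7.55, 7.14 and 7.74 on wild-type arrays, 7.56, 7.19, 7.98 and 7.80 on Mdr2-KO arrays and 7.77, 7.79, 7.97 and 8.20 on Mdr2-KO/IL6-KO arrays. The Mdr2-KO/IL6-KO arrays lay just above the highest wild-type array, and the Mdr2-KO arrays overlapped with both groups. The log2 change in Mdr2-KO/IL6-KO was 0.45 ± 0.18 SE (limma adjusted p = 0.235).

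**Figure D3:**
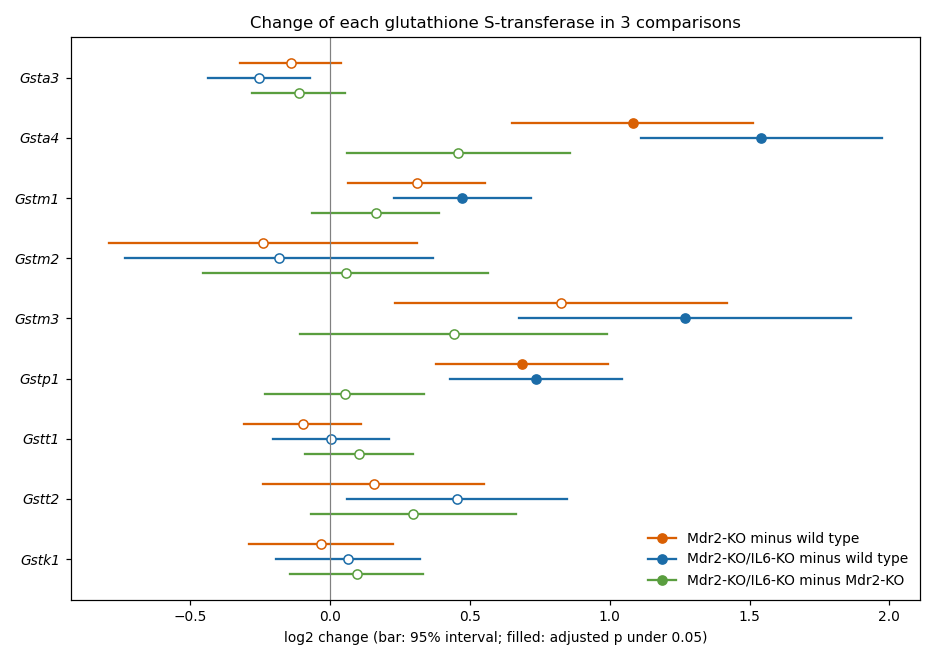
Log2 change of each gene (horizontal axis, with bars for the 95% interval) in the 3 comparisons; filled points have a limma adjusted p under 0.05. Gsta4 and Gstp1 are filled in both comparisons with wild type and Gstm3 and Gstm1 in 1, and no gene is filled between the knockout groups.

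Between the knockout groups, none of the 9 glutathione S-transferases was called with limma, as for nearly all genes (0% called higher and 0.00502% lower, which is 1 gene). A gene-by-gene model without moderation called 0 genes. At an unadjusted p under 0.05 with limma, 961 of all 19938 genes passed, no more than the share that chance alone passes. Of the 9, 1 passed at this level. That 1 gene was Gsta4, at 0.46 ± 0.19 SE in log2, higher in Mdr2-KO/IL6-KO (interval 0.06 to 0.86, limma adjusted p = 0.9995). Gstm3 differed by 0.44 (interval -0.11 to 0.99), Gstt2 by 0.30 (-0.07 to 0.66), Gstm1 by 0.16 (-0.06 to 0.39), Gstp1 by 0.05 (-0.23 to 0.34) and Gsta3 by -0.11 (-0.28 to 0.05), all with a limma adjusted p of 0.9995. Gsta3 was the only gene of the 9 without overlap of the groups, as were 2.51% of all genes. Its gap between the groups was far smaller than the SD within either of them. The rises of Gstm3 and Gstm1 passed in Mdr2-KO/IL6-KO and not in Mdr2-KO, but the direct comparison does not show that the groups differ in them. For Gstp1 the interval limits a difference to less than 0.34 in log2, and for Gsta4 and Gstm3 the interval reaches 0.86 and 0.99.

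Mdr2-KO arrays 2 and 3 stood apart on the array-wide component and, for several of these genes, at the low and high end of their group. Without both, the called genes were the same. Gsta4 then had a log2 change of 0.95 in Mdr2-KO (limma adjusted p = 0.0405) and Gstp1 of 0.86 (0.00488), while in Mdr2-KO/IL6-KO the adjusted p was 0.000246 for Gsta4, 0.00720 for Gstm3, 0.00139 for Gstp1 and 0.0220 for Gstm1.

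Beyond the 10 genes, 21 others of the glutathione transferase families were listed, of which 17 had a probe set of their own. None was called in Mdr2-KO, where 0.948% of all genes were called higher and 0.316% lower. In Mdr2-KO/IL6-KO 2 rose, the mu-class Gstm4 and the membrane-bound Mgst3, where 2.91% of all genes were called higher and 1.28% lower. The median log2 change of the 17 was -0.03 and 0.01 in the comparisons with wild type. Gstm4 read 8.86 to 9.03 on wild-type arrays, 8.97 to 9.45 on Mdr2-KO arrays and 9.19 to 9.58 on Mdr2-KO/IL6-KO arrays, with a log2 change of 0.51 ± 0.13 SE in the last (limma adjusted p = 0.0431). Mgst3 had a log2 change of 0.63 ± 0.15 SE there (limma adjusted p = 0.0375). The omega-class Gsto1 read lower in both groups without overlap, at -0.40 and -0.38 in log2, and did not pass (limma adjusted p = 0.0884 and 0.0520). Arrays did not overlap for 9.13% of all genes in Mdr2-KO and for 16.3% in Mdr2-KO/IL6-KO.

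**Figure D4:**
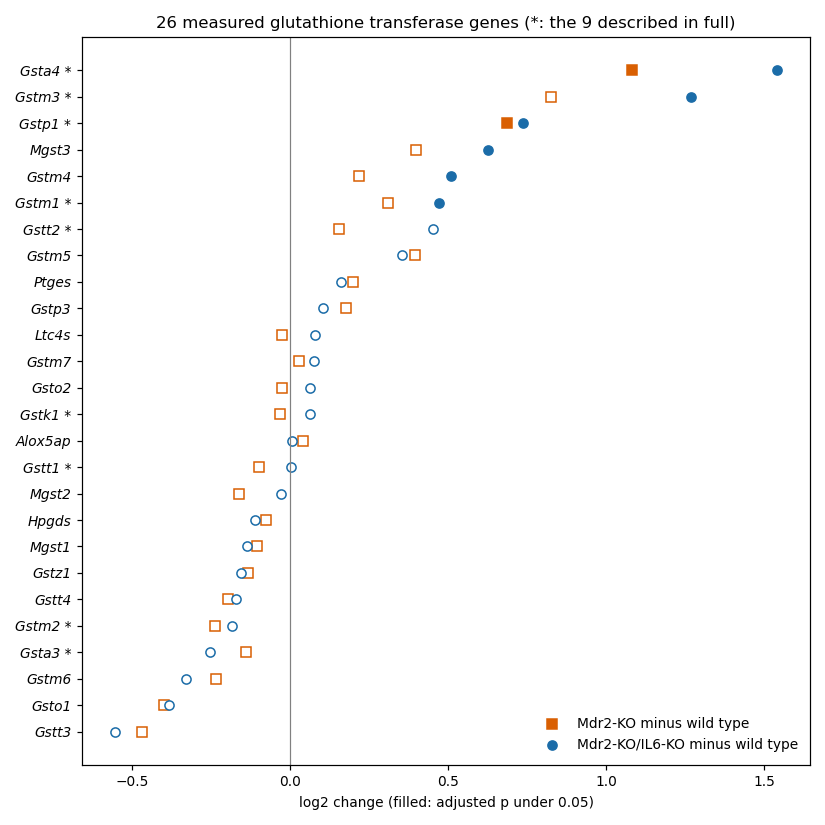
Log2 change against wild type (horizontal axis) of every measured glutathione transferase gene in Mdr2-KO (squares) and Mdr2-KO/IL6-KO (circles), ordered by the latter; filled symbols have a limma adjusted p under 0.05 and asterisks mark the 9 genes described in full. Filled symbols occur for 6 genes, from Gsta4 at 1.54 to Gstm1 at 0.47.

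Most genes of glutathione supply and use outside the transferases were not called. The following counts stand against 0.948% of all genes called higher and 0.316% lower in Mdr2-KO, while for Mdr2-KO/IL6-KO these shares were 2.91% and 1.28%. Of 24 measured genes of glutathione synthesis, recycling and breakdown, none was called in Mdr2-KO and 1 rose in Mdr2-KO/IL6-KO, Gss, which joins glycine on in the last step of synthesis (log2 change 0.43 ± 0.11 SE, limma adjusted p = 0.0420). Gclc, the catalytic subunit of the rate-limiting step, had log2 changes of 0.25 (limma adjusted p = 0.643) and 0.41 (0.151). The median of the 24 was 0.07 and 0.12, and 1 of 24 is close to the share over all genes. Of 15 peroxidases, glutaredoxins and other users of glutathione, 1 rose in Mdr2-KO, the secreted peroxidase Gpx3 (0.79 ± 0.16 SE, limma adjusted p = 0.0310). In Mdr2-KO/IL6-KO Gpx3 rose again (0.81 ± 0.16 SE, 0.0122), Gpx4, which reduces lipid hydroperoxides in membranes, rose (0.64 ± 0.10 SE, 0.00250), and Gpx6 fell (-1.60 ± 0.34 SE, 0.0173). Of 10 genes of conjugate export and mercapturate formation, none was called in Mdr2-KO, and the pumps Abcg2 (0.42 ± 0.09 SE, limma adjusted p = 0.0163) and Abcc4 (0.43 ± 0.10 SE, 0.0217) rose in Mdr2-KO/IL6-KO.

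Among 16 measured regulators of these genes none was called in Mdr2-KO, and 1 rose and 1 fell in Mdr2-KO/IL6-KO. In Mdr2-KO/IL6-KO the pregnane X receptor Nr1i2 rose (log2 change 0.41 ± 0.10 SE, limma adjusted p = 0.0314) and the bile acid receptor Nr1h4 fell (-0.45 ± 0.10 SE, 0.0189). Nfe2l2, which encodes NRF2, had log2 changes of 0.20 and 0.37 (limma adjusted p = 0.765 and 0.213). Its inhibitor Keap1 had -0.11 in both (0.765 and 0.601), and the constitutive androstane receptor Nr1i3 had -0.24 and -0.46 (0.774 and 0.226). Of these 3, none passed, and NRF2 is regulated mainly as a protein, which these arrays do not measure. Of 18 NRF2 targets outside glutathione use, 1 rose in Mdr2-KO, the microsomal epoxide hydrolase Ephx1 (0.66 ± 0.10 SE, limma adjusted p = 0.00600). In Mdr2-KO/IL6-KO 6 of the 18 rose and none fell, where 2.91% of all genes rose and 1.28% fell. Ephx1 led with 0.88 ± 0.10 SE (0.000421), followed by the aldehyde oxidase Aox1 at 0.54 ± 0.08 SE (0.00188) and Ugdh, which makes the sugar donor of glucuronidation, at 0.57 ± 0.10 SE (0.00378). The median of the list was 0.18 and 0.26.

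**Figure D5:**
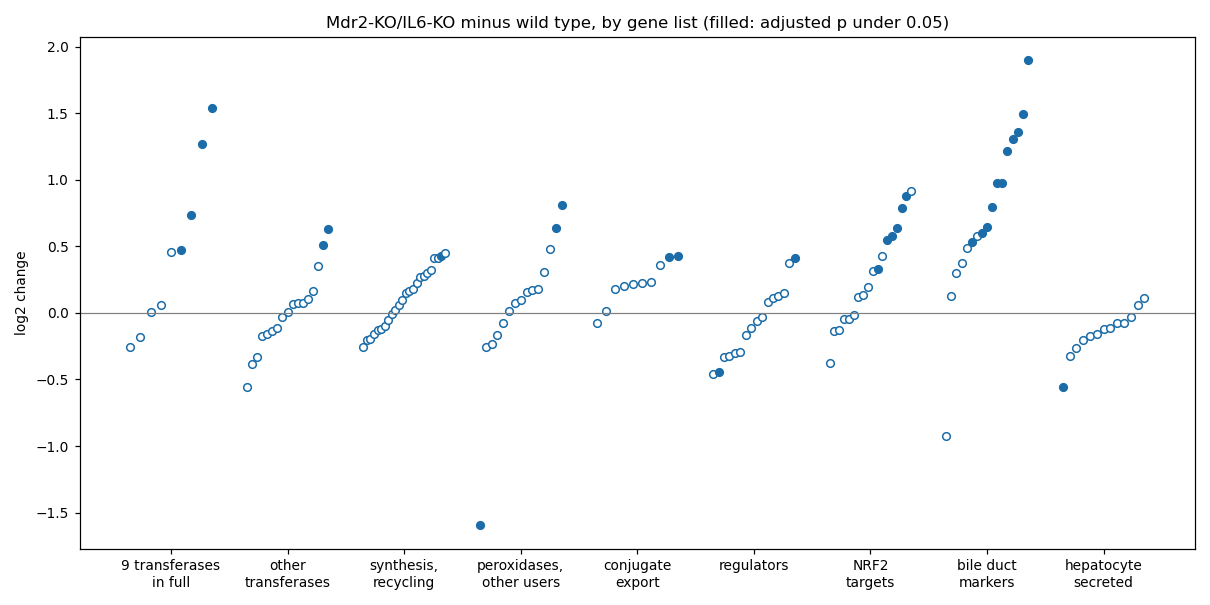
Log2 change in Mdr2-KO/IL6-KO against wild type (vertical axis) of every measured gene of 9 lists, each ordered by size; filled points have a limma adjusted p under 0.05. The bile duct markers hold 11 filled points, the 9 glutathione S-transferases 4 and the NRF2 targets 6, while 2 of the 13 secreted hepatocyte proteins lie above 0 and the 1 filled point of that list lies below it.

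Markers of other cell types moved with the same comparisons, and in whole tissue more cells of a type and more RNA per cell cannot be told apart. Of 17 measured bile duct cell markers, 10 rose in Mdr2-KO, where 0.948% of all genes rose, 11 rose in Mdr2-KO/IL6-KO, where 2.91% rose, and none fell. Their mean log2 level relative to wild type was -0.03 to 0.02 on the wild-type arrays, 0.66 to 0.77 on the Mdr2-KO arrays and 0.60 to 0.93 on the Mdr2-KO/IL6-KO arrays. Krt19, a keratin of bile duct cells, read 4.87 to 5.35, 6.21 to 6.72 and 5.88 to 6.89 in these groups. Krt7, another such keratin, read 5.52 to 5.79, 5.97 to 6.03 and 5.78 to 6.38 and was not called. Detection calls were not used here, so whether either keratin lay above background in wild type is not known. The largest changes of the list were in Cdh1, at 1.65 and 1.90 (limma adjusted p = 0.000249 and 3.69e-05). Of 15 stellate cell and fibroblast markers, 7 and 8 rose, with Col1a1, a chain of fibrillar collagen, at 1.02 and 1.24 (limma adjusted p = 0.00561 and 0.000623). Their mean relative to wild type was -0.12 to 0.11, 0.40 to 0.58 and 0.43 to 0.75 in the 3 groups. On Mdr2-KO arrays 1, 2, 3 and 4 the bile duct means were 0.77, 0.66, 0.68 and 0.73. Of 13 secreted hepatocyte proteins only Fgb, a fibrinogen chain, was called, lower in Mdr2-KO/IL6-KO (-0.56 ± 0.08 SE, limma adjusted p = 0.00137). The arrays of Mdr2-KO/IL6-KO and wild type did not overlap for 9 of the 13, against 16.3% of all genes, and 2 of the 13 had a log2 change above 0. The mean of the 13 relative to wild type was -0.05 to 0.05 on wild-type arrays, -0.15 to -0.02 on Mdr2-KO arrays and -0.17 to -0.12 on Mdr2-KO/IL6-KO arrays. The part of these cell types in the rises of the glutathione S-transferases was not tested.

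For each called gene, the 3 genes outside the family whose profile over the 11 arrays was closest were found, by the root mean square difference in log2 after centring each gene on its own mean, among 18856 genes. For Gsta4 these were the tubulin Tuba8 (0.151), the phospholipid-binding Anxa5 (0.177) and the basement membrane protein Nid1 (0.213), against a spread of Gsta4 itself of 0.705 (SD over the 11 arrays). For Gstm3 (SD 0.663) they were the defensin Defb1 (0.152), the tetraspanin Cd9 (0.220) and Uap1l1 (0.227). For Gstp1 (SD 0.383) they were Gabrp (0.103), the thrombin receptor F2r (0.114) and the transcription factor Klf6 (0.118), and for Gstm1 (SD 0.239) Tmem176b (0.0545), Pir (0.0849) and the major vault protein Mvp (0.0893). The distances describe these arrays and carry no test.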

How the data were processed

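Expression was measured on Affymetrix arrays in liver RNA (3 wild-type, 4 Mdr2-KO and 4 Mdr2-KO/IL6-KO arrays), grouped by the labels. The authors deposited log2 values of 35557 probe sets, and the submitters' processing notes name RMA and Partek; their versions and settings are not given in the sources used here. No further normalization was applied. Names came from the platform annotation, with symbols updated to RefSeq GRCm38.p6: 21789 had 1 symbol, 1621 several and 12147 none, and 19856 of the 19938 genes tested matched RefSeq. Probe sets differ in response, so levels are compared only within a probe set.

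Comparisons used limma 3.58.1 in R 4.3.3: 1 linear model of the 11 arrays, a mean per group, 3 contrasts, eBayes, two-sided. The labels give no batch or pairing, so neither was fitted. No filter on low values was used, so each of the 9 genes entered. Errors of changes are SE, of levels SD. The number of arrays limits the precision.

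The genes and the 15 lists were chosen with earlier results of these data known. Named are all 10 genes, Abcb4, Il6, Nfe2l2, Keap1, Nr1i3, up to 3 called genes per list and comparison by lowest p, at most 2 defining markers per cell type, other probe sets of a gene and the 3 closest profiles. Gclc and Gsto1 were picked after their values were seen. Each comparison was rerun under 24 alternatives, including leaving out each array. The code was tested on simulated data.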

Additional observations from a re-analysis of the deposited data

Results flagged for a closer look

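In Mdr2-KO the Gstp1 level of array 2 lay far below the rest of its group, at 12.13 in log2 against 12.67, 12.73 and 12.75. Its gap to the nearest of them was 0.865 of the whole range of the group, which is above the critical value of Dixon's test for 4 samples. It was the only one of 18 such tests, over the 9 genes in both knockout groups, to pass, and chance alone passes about 1 in 20. Without this array the log2 change of Gstp1 in Mdr2-KO was 0.83 (limma adjusted p = 0.00139), against 0.69 (0.0320) with it. The same array was the lowest of the knockout arrays on both probe sets shared by Gstp1 and Gstp2, at 10.72 and 10.76.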

How the results depend on the processing

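All calls rest on 3 wild-type arrays. Of the 9 glutathione S-transferases 2 were called in Mdr2-KO against wild type, which became 1 with median centring of the arrays and 0 in the unmoderated model, with only the compared groups in the fit, at an adjusted p under 0.01 and with all probe sets in the fit; leaving out 1 array gave 0 to 2. In Mdr2-KO/IL6-KO against wild type 4 were called, which became 1 in the unmoderated model and 2 at an adjusted p under 0.01 and with all probe sets in the fit; leaving out 1 array gave 2 to 4, and array weights gave 5. Between the knockout groups the count was 0 in every alternative, with 0 to 6 over all genes. No called change turned its sign in any of the 24. Over all genes the 252 and 836 calls became 43 and 496 in the unmoderated model, 94 and 342 at an adjusted p under 0.01, 410 and 1341 with array weights, and 148 to 323 and 464 to 989 with 1 array left out (lowest without wild-type array 2 and wild-type array 1); with only the compared groups the first was 138, with all probe sets they were 112 and 488, and with an added fold of 1.5 the second was 445. The stricter threshold lowers counts by construction. The fit of all probe sets changes both the adjustment and the moderated spread (the SE of Gsta4 in Mdr2-KO is 0.217 there, against 0.200). Otherwise the cause was not tested. The fits with all probe sets and without Mdr2-KO arrays 2 and 3 were chosen after seeing the data. No paired analysis was possible because the labels give no replicate numbers that the groups share.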

Other observations

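Markers of the remaining cell types and of the liver zones were read in the same way, beside 0.948% of all genes called higher and 0.316% lower in Mdr2-KO; for Mdr2-KO/IL6-KO these shares were 2.91% and 1.28%. Of 14 macrophage and monocyte markers, Gpnmb rose (log2 change 1.18 ± 0.24 SE in Mdr2-KO, limma adjusted p = 0.0294, and 1.57 ± 0.24 SE in Mdr2-KO/IL6-KO, 0.00230) and Spic, a transcription factor of iron-recycling macrophages, fell (-1.13, 0.0371, and -0.92, 0.0495). Of 13 lymphocyte markers none was called in Mdr2-KO, and Gzma (-0.60, limma adjusted p = 0.0412) and Cd8a (-0.58, 0.0464) fell in Mdr2-KO/IL6-KO. Of 12 endothelial markers, Cd34 rose in both (1.28, limma adjusted p = 0.000143, and 1.41, 3.12e-05), and Lyve1 (0.66, 0.0357) and Stab1 (0.36, 0.0419), both of sinusoidal endothelium, rose in Mdr2-KO/IL6-KO.

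Of 14 pericentral hepatocyte genes, which mark the zone around the central vein, Tbx3 fell in both (-0.79, limma adjusted p = 0.0442, and -0.67, 0.0480) and Rgn in Mdr2-KO/IL6-KO (-0.48, 0.0258). Glul, the glutamine synthetase of the innermost pericentral cells, had log2 changes of -0.10 and -0.11 (limma adjusted p = 0.854 and 0.675). Of 11 periportal genes only Ctsc was called, lower in Mdr2-KO/IL6-KO (-0.83, limma adjusted p = 0.0192).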
